A study of Mus musculus with 10 samples.

Results

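The MYC network is a set of transcription factors that pair with the small proteins MAX or MLX and compete for the same DNA sites. The 10 genes described here are Myc, Mycn, Mycl, Max, Mga, Mnt, Mxi1, Mxd3, Mxd4 and Mlx, picked by name among the 51467 genes of the count table of mRNA from mouse embryonic stem cells (ESCs). The 3 genotypes sequenced were wild-type cells (WT, 3 libraries), a line without DGCR8 (DGCR8 KO, 3 libraries) and cells without DDX6 (DDX6 KO, 4 libraries, 2 from clone 1 and 2 from clone 2). DGCR8 is a subunit of the complex that cuts primary miRNAs in the nucleus, so that its loss removes nearly all miRNAs. DDX6 is an RNA helicase that has been implicated in translational repression and in mRNA decay. For these ESCs the study reported that loss of DDX6 raised the translation of miRNA targets, while the stability of their mRNA changed little. All cells grew in medium with serum, LIF and the 2i inhibitors PD0325901 and CHIR99021. The labels name CRISPR for all knockout cells, whereas the study's methods describe CRISPR for DDX6 KO and a DGCR8 KO line made in earlier work of the same laboratory, and how the background of that line compares with WT was not settled here. WT and DGCR8 KO were 1 cell line each, so that a difference between lines and a difference between genotypes cannot be told apart for DGCR8 KO.

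MYC, MYCN and MYCL are the activating members. Each binds DNA as a dimer with MAX, most often at the letters CACGTG, known as the E-box, and raises genes of ribosome production, nucleotide synthesis and growth. MNT and the MXD proteins, of which MXI1 is a member, also pair with MAX but recruit the SIN3 and HDAC corepressors to the same sites. MGA pairs with MAX inside the polycomb complex PRC1.6, which represses germline genes in ESCs. MLX is the partner of MLXIP and MLXIPL in the arm of the network that responds to glucose.

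The libraries held between 2131156 and 4745083 counts over genes, which places 3 counts between 0.632 and 1.41 CPM (a gene's counts scaled to one common library size, here the total counts). All other CPM levels, unless said, use library sizes scaled by TMM. The RNA was read by QuantSeq 3′ FWD, in which each read starts near the end of a poly(A) transcript, so that CPM values were compared between libraries and not between genes. In bulk RNA, fewer cells that express a gene and less of its RNA per cell cannot be told apart. The levels of the targeted genes went with the labels. Dgcr8 lay at 50.4 to 65.8 CPM in WT and at 9.16 to 15.5 in DGCR8 KO. Ddx6 lay at 505 to 586 CPM in WT, at 135 to 149 in clone 1 and at 25.7 to 39.0 in clone 2. All 6 ESC markers checked (Pou5f1, Sox2, Nanog, Zfp42, Esrrb and Klf4) passed the filter on low counts, and their summed level was 2457 to 2591 CPM in DGCR8 KO, 2564 to 2769 in WT and 3009 to 3167 in DDX6 KO. Between WT and DDX6 KO the level of Nanog differed most, with a mean of 569 CPM in WT and 869 in DDX6 KO. Nanog lies on chromosome 6, where the median gene stood at 0.59 on the log2 scale in DDX6 KO. Of the other cell types checked, the 4 primitive endoderm and 3 mesoderm markers had no member past the filter and the 5 fibroblast markers had 1, with summed levels of at most 9.52 CPM in any library. The 3 neural markers summed to 27.8 to 41.2 CPM in WT, 23.8 to 27.7 in DGCR8 KO and 69.2 to 116 in DDX6 KO. Sox1 made up most of each sum, at 26.4 to 40.9 CPM in WT, 19.6 to 22.0 in DGCR8 KO and 68.9 to 115 in DDX6 KO. Pax6 lay at 0.341 to 1.44 CPM in WT, 3.73 to 5.70 in DGCR8 KO and 0 to 1.41 in DDX6 KO. It had 3, 1 and 3 counts in WT and reached the filter through DGCR8 KO alone, so that its rise is no independent result. It was higher in the DGCR8 KO libraries, in which Mycn was also higher and Sox1 was lower. Sox1 lies on chromosome 8, where the median gene stood at -0.45 on the log2 scale in DGCR8 KO. Their part in the results below was not tested.

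Seed matches of ESC miRNAs are shown first, because the loss of DGCR8 takes away the miRNAs that would bind there. The miR-290 and miR-302 clusters of ESCs carry the seed AAGUGCU, and miR-17 carries the same letters shifted by 1 base. In the RefSeq mature sequences below (GRCm38.p6), capitals mark bases 2 to 8, the seed.
mmu-miR-294-3p: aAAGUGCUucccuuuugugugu
mmu-miR-302b-3p: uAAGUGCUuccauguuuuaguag
mmu-miR-17-5p: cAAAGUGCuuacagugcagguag

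The 3′ UTR was read for 9 of the 10 genes, and the exception was Myc. For each gene it was the longest 3′ UTR of a principal transcript in the GENCODE M21 annotation (GRCm38), and it was searched on the transcript strand for the miR-294 matches AGCACTT and GCACTTA. A match was held by 5 genes, namely Mga with 3 and Mycn, Mnt, Mxi1 and Mxd3 with 1 each. Mycl, Max, Mxd4 and Mlx held none. Among 3′ UTRs within 1.2-fold of the gene's own length, a match was present in 11.8% for Mycn (3′ UTR of 913 bases), 49.8% for Mga (4616 bases), 31.6% for Mnt (2405 bases), 19.7% for Mxi1 (1418 bases) and 7.44% for Mxd3 (615 bases). The matches below are shown with their surroundings, with the matching letters in capitals, since these genes are the members that could be bound through this seed.
Mycn, chr12:12936129-12936157, minus strand: ctgcaccttagAGCACTTtgaaatacctc
Mga, chr2:119965439-119965468, plus strand: cttgtaattccAGCACTTAgaagactaaag
Mga, chr2:119966741-119966770, plus strand: gacaggtcatcAGCACTTAacctttcctgt
Mga, chr2:119969089-119969117, plus strand: cttttgaagaaAGCACTTttaagggtcct
Mnt, chr11:74845647-74845675, plus strand: tccatgtaataAGCACTTgcctggaataa
Mxi1, chr19:53372863-53372891, plus strand: tagttacgttcAGCACTTgtctcatttaa
Mxd3, chr13:55325589-55325617, minus strand: gaatttcatgtAGCACTTggccctgcttt

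The Mycn match and the third Mga match are followed by a T and therefore also hold GCACTTT, a match of miR-17. Mga held 2 further miR-17 matches (CACTTTA), and Mnt held 1 at chr11:74844627-74844656, plus strand, in the window aacctcccaggGCACTTTAttattattatt. Mycl had no miR-294 match but had 1 match of miR-17 (CACTTTA) at chr4:123001060-123001088, plus strand, in the window tcaccgtcagaCACTTTAcagtagctgtg. Of the 3′ UTRs within 1.2-fold of the length of that of Mycl (1970 bases), 26.4% held a miR-17 match. No 3′ UTR of the 9 held a match of miR-92a (GTGCAAT or TGCAATA). A match is a description of the letters, and binding was not measured here.

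Of the 10 genes, 9 passed the filter of at least 3 CPM in at least 3 libraries, and the exception was Myc. In DGCR8 KO against WT, 4 of these 9 were higher (Mycn, Max, Mga and Mnt) and 1 was lower (Mycl) at an adjusted p under 0.05 in limma-voom. Over all 11683 genes tested, 19.9% were higher and 16.5% were lower. In DDX6 KO against WT, 1 member was higher (Mga) and 4 were lower (Mycl, Mxi1, Mnt and Max), against 17.9% and 16.6% of all genes. The median change of the 9 members on the log2 scale was 0.38 in DGCR8 KO and -0.32 in DDX6 KO, and the median over all tested genes was 0.00 and 0.02. When the knockouts were compared with each other, 5 members were higher in DGCR8 KO (Mycn, Mxi1, Max, Mnt and Mga) and 0 were higher in DDX6 KO, where 23.0% of all genes were higher in DGCR8 KO and 21.0% were lower. At an unadjusted p under 0.05 the same comparison also gave 5 members, and edgeR and DESeq2 gave 5. The 2 DDX6 KO clones differed in 0 members by limma-voom, in 0 at an unadjusted p under 0.05 and in 0 by edgeR and by DESeq2, and in 0.0428% of all genes. Scaling by total counts in place of TMM changed the split over all genes in DDX6 KO from 2088 higher and 1944 lower to 2822 and 1356, and between the knockouts from 2688 and 2456 to 2037 and 3210. It left the direction of every member that passed as it was, but 3 members rather than 5 then passed in DDX6 KO, and 6 rather than 5 passed between the knockouts. The added member was Mlx, lower in DGCR8 KO than in DDX6 KO by that scaling (-0.36, limma adjusted p = 0.0477).

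**Figure D1:**
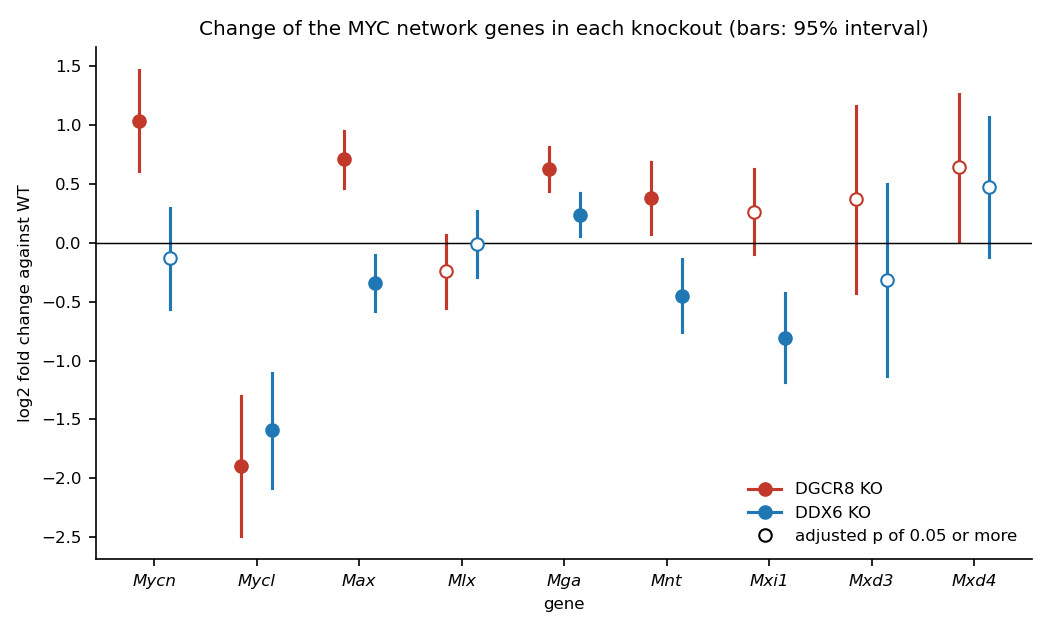
Log2 fold change against WT (y axis) of the 9 tested members (x axis) in DGCR8 KO (red) and DDX6 KO (blue), with bars for the 95% interval of the fit and open circles where the adjusted p was 0.05 or more. Mycl was lower in both knockouts, while Mycn, Max and Mnt were higher in DGCR8 KO and at or below 0 in DDX6 KO.

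Mycn, the MYC family gene best known from neural progenitors and from neuroblastoma, was read at 89.3, 106 and 95.9 CPM in the WT libraries. It was read at 180, 290 and 150 CPM in DGCR8 KO, and at 93.8, 82.1, 120 and 68.6 CPM in the DDX6 KO libraries, clone 1 before clone 2. All 3 DGCR8 KO libraries were above every WT and every DDX6 KO library, and the DDX6 KO libraries lay on both sides of WT. The mean was 97.0 ± 8.39 CPM in WT (SD, n = 3), 207 ± 73.8 in DGCR8 KO (n = 3) and 91.0 ± 21.7 in DDX6 KO (n = 4). Mycn rose 2.05-fold in DGCR8 KO, or by 1.04 on the log2 scale (SE 0.20, limma adjusted p = 0.000601). In DDX6 KO it was -0.13, with a 95% interval from -0.56 to 0.29 (limma adjusted p = 0.643). The knockouts differed by 1.17 on the log2 scale (SE 0.19, limma adjusted p = 7.83e-05). The spread of Mycn in DGCR8 KO was wide, and replicate 2 alone stood at 290 CPM.

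Mycl, the MYC family gene first found amplified in lung cancer, was read at 24.5, 27.9 and 20.3 CPM in WT. In DGCR8 KO it was read at 6.43, 7.80 and 4.48 CPM, and in DDX6 KO at 8.06, 6.26, 10.2 and 6.996 CPM. Every knockout library was below every WT library, and the knockouts overlapped each other. The level was 25.7% of WT in DGCR8 KO and 32.5% in DDX6 KO. On the log2 scale Mycl fell by 1.89 in DGCR8 KO (SE 0.28, limma adjusted p = 4.50e-05) and by 1.59 in DDX6 KO (SE 0.23, limma adjusted p = 5.26e-05). Each clone passed alone, at -1.71 for clone 1 (limma adjusted p = 0.00134) and -1.49 for clone 2 (limma adjusted p = 0.00161). Mycl was the only member that fell in both knockouts, both of which were set against the same WT libraries. The change in DGCR8 KO minus that in DDX6 KO was -0.30, with a 95% interval from -0.96 to 0.35 (limma adjusted p = 0.453).

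Myc itself was near the limit of detection, with 3, 3 and 4 counts in WT, 4, 2 and 0 in DGCR8 KO and 5, 5, 7 and 5 in DDX6 KO. Summed over libraries it gave 10 of 9896878 counts in WT, or 1.01 CPM of the raw totals with an exact Poisson 95% interval from 0.485 to 1.86. The sum was 6 counts in DGCR8 KO, or 0.664 CPM (0.244 to 1.45), and 22 in DDX6 KO, or 1.92 CPM (1.201 to 2.90). The intervals cover counting error only, and the 3 intervals overlap. On the TMM scale all 4 DDX6 KO libraries (1.40 to 2.46 CPM) lay above all 3 DGCR8 KO libraries (0 to 1.22), and both overlapped with WT (0.892 to 1.44). At these counts the gene was not tested and no fold change is given.

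The make-up of the MYC family counts differed between genotypes. It is compared between libraries and not as the level of a gene against another. Of the summed counts of Myc, Mycn and Mycl, Mycn made up 77.5% to 81.9% in WT, 95.9% to 97.2% in DGCR8 KO and 89.1% to 91.1% in DDX6 KO. The share of Mycl was 17.3% to 21.3% in WT, 2.61% to 3.43% in DGCR8 KO and 6.95% to 9.09% in DDX6 KO. No library of a genotype overlapped with another genotype in either share, and no test was run on the shares. The summed level of the 3 genes was 115 to 135 CPM in WT, 154 to 299 in DGCR8 KO and 76.96 to 132 in DDX6 KO. It lay above WT in every DGCR8 KO library and overlapped with WT in DDX6 KO.

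**Figure D2:**
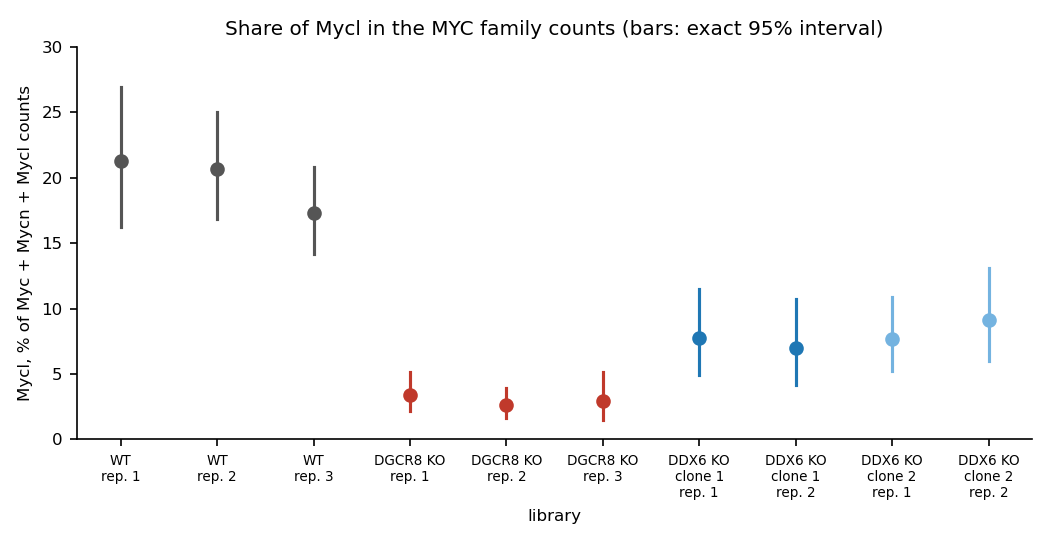
Mycl counts as a percent of the summed Myc, Mycn and Mycl counts (y axis) in each of the 10 libraries (x axis), with exact binomial 95% intervals, which cover counting error only. WT libraries lie at 17.3% to 21.3%, DGCR8 KO at 2.61% to 3.43% and DDX6 KO at 6.95% to 9.09%.

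Max encodes the partner that MYC, MXD, MNT and MGA proteins need for binding DNA. It was read at 138, 144 and 144 CPM in WT and at 236, 238 and 223 CPM in DGCR8 KO. In DDX6 KO it was read at 122 and 127 CPM in clone 1 and at 112 and 94.0 CPM in clone 2. The genotypes did not overlap, with DGCR8 KO highest and DDX6 KO lowest. Max rose in DGCR8 KO by 0.71 on the log2 scale (SE 0.11, limma adjusted p = 0.000100). The 3′ UTR searched for Max held no match of miR-294, miR-17 or miR-92a, and the cause of the rise was not tested. In DDX6 KO it fell by 0.34 (SE 0.11, limma adjusted p = 0.0256). That call was not stable, since the limma adjusted p was 0.0621 without WT replicate 2, 0.0831 without WT replicate 3, 0.0559 and 0.0941 without either library of clone 2, and 0.133 with total counts. Clone 2 passed alone at -0.48 (limma adjusted p = 0.0117) and clone 1 did not at -0.20 (limma adjusted p = 0.273). The difference between the knockouts was 1.05 (SE 0.11, limma adjusted p = 5.62e-07), or 2.07-fold. An annotated transcript, Gm47218, overlaps Max on the same strand, with 28 counts over the 10 libraries.

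Mlx, the partner of MLXIP and MLXIPL, did not pass in any comparison under TMM scaling. It was read at 73.0, 59.3 and 57.7 CPM in WT, 60.6, 48.5 and 48.1 in DGCR8 KO and 67.8, 59.1, 55.2 and 64.7 in DDX6 KO. The 3 genotypes overlapped. The log2 fold change was -0.24 in DGCR8 KO (95% interval from -0.55 to 0.07) and -0.01 in DDX6 KO (from -0.29 to 0.27).

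Mga, the largest protein of the network and the MAX partner within PRC1.6, was the only member that was higher in both knockouts. It was read at 380, 345 and 374 CPM in WT, at 558, 589 and 547 in DGCR8 KO and at 452, 440, 427 and 409 in DDX6 KO. All knockout libraries lay above all WT libraries, and all DGCR8 KO libraries lay above all DDX6 KO libraries. Mga rose in DGCR8 KO by 0.63 on the log2 scale (SE 0.09, limma adjusted p = 3.28e-05). In DDX6 KO it was 0.24 (SE 0.09, limma adjusted p = 0.0395), and the adjusted p was between 0.0580 and 0.153 when WT replicate 1, 2 or 3, clone 1 replicate 1 or 2, or clone 2 replicate 1 was left out. Neither clone passed alone, with limma adjusted p of 0.0560 and 0.193. The knockouts differed by 0.39 (SE 0.08, limma adjusted p = 0.00105).

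Mnt encodes a MAX partner that represses transcription in most dividing cells. Its reads gave 36.01, 35.8 and 33.7 CPM in WT, 43.2, 42.8 and 52.1 in DGCR8 KO and 24.5, 25.04, 27.4 and 25.2 in DDX6 KO. As for Max, the genotypes did not overlap, with DGCR8 KO highest and DDX6 KO lowest. The changes against WT were small and close to the threshold, at 0.38 in DGCR8 KO (SE 0.15, limma adjusted p = 0.0469) and -0.45 in DDX6 KO (SE 0.15, limma adjusted p = 0.0251). Leaving out any library but DGCR8 KO replicate 2 ended the first call, with an adjusted p between 0.0537 and 0.155. Leaving out WT replicate 1, 2 or 3, clone 1 replicate 1 or 2, or clone 2 replicate 2 ended the second, with an adjusted p between 0.0521 and 0.0611. The difference between the knockouts was firmer, at 0.83 (SE 0.14, limma adjusted p = 0.000143).

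Mxi1, a MAX partner of the MXD group that recruits SIN3, fell in DDX6 KO. It was read at 42.3, 53.5 and 37.9 CPM in WT and at 20.1, 33.4, 24.6 and 23.2 CPM in DDX6 KO. Every DDX6 KO library was below every WT library. The DGCR8 KO libraries gave 45.9, 55.3 and 57.4 CPM and overlapped with WT. On the log2 scale it fell by 0.80 in DDX6 KO (SE 0.18, limma adjusted p = 0.00226), which leaves 56.9% of the WT mean, and both clones passed alone, at -0.74 (limma adjusted p = 0.0293) and -0.87 (limma adjusted p = 0.0119). In DGCR8 KO it was 0.26, with a 95% interval from -0.10 to 0.62 (limma adjusted p = 0.251). The knockouts differed by 1.07 (SE 0.18, limma adjusted p = 0.000102).

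The other MXD genes, Mxd3 and Mxd4, which code for repressors of the same group, were low and did not pass in any comparison. Mxd3 ranged from 3.07 to 7.13 CPM in WT, 4.59 to 8.55 in DGCR8 KO and 3.13 to 5.28 in DDX6 KO. Its log2 fold change was 0.37 in DGCR8 KO (95% interval from -0.43 to 1.16) and -0.32 in DDX6 KO (from -1.13 to 0.50). Changes of more than 2-fold in Mxd3 therefore lie inside both intervals. Mxd4 ranged from 6.47 to 10.6 CPM in WT, 8.55 to 16.5 in DGCR8 KO and 8.96 to 13.2 in DDX6 KO. Its log2 fold change was 0.64 in DGCR8 KO (95% interval from 0.01 to 1.26, limma adjusted p = 0.102) and 0.47 in DDX6 KO (from -0.12 to 1.07, limma adjusted p = 0.209). Without DGCR8 KO replicate 3, the lowest of its group, Mxd4 passed in DGCR8 KO at 0.83 (limma adjusted p = 0.0419).

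**Figure D3:**
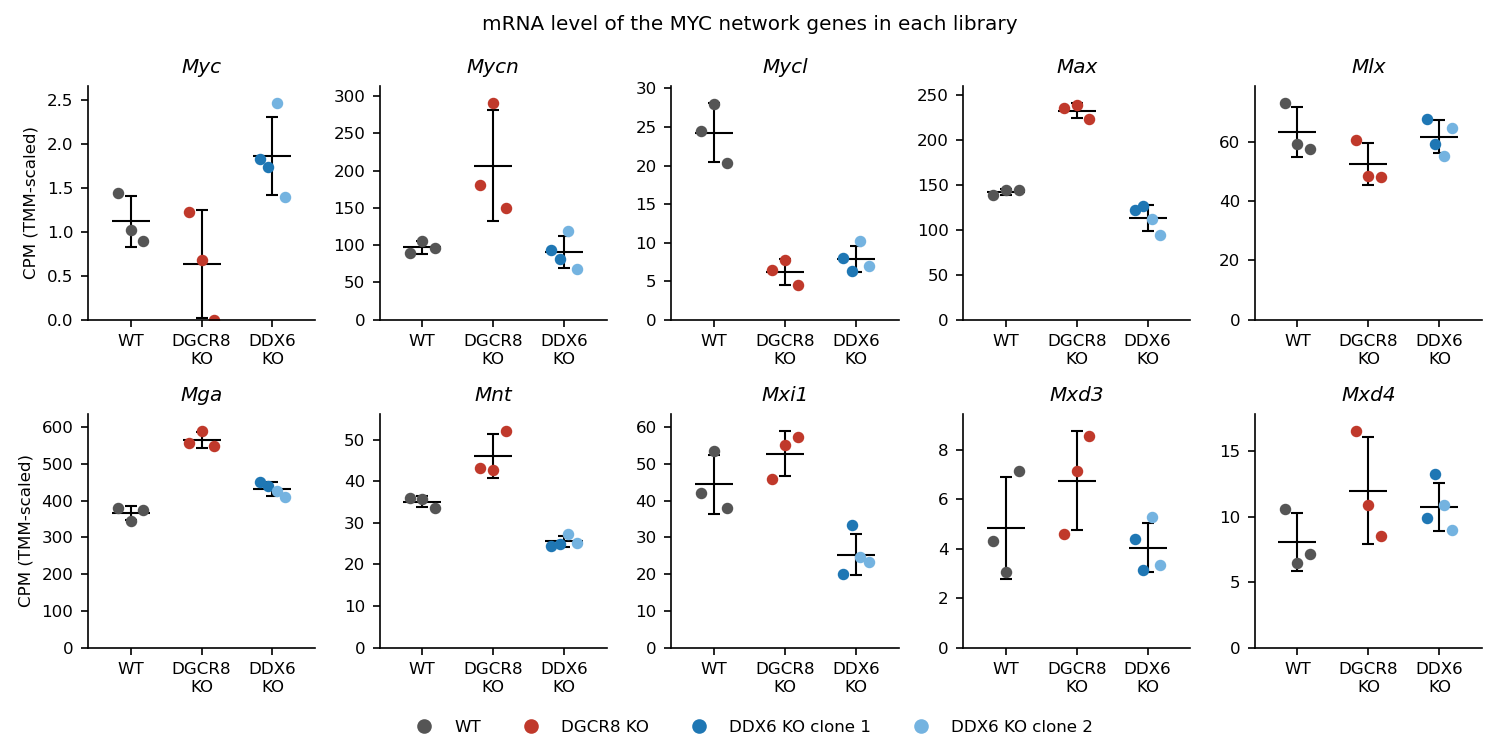
TMM-scaled CPM (y axes, each from 0) of the 10 genes in each library, grouped by genotype (x axes), with horizontal lines for the mean and error bars for the SD. The Mycl panel has all knockout libraries below WT, and the Max and Mnt panels have DGCR8 KO above WT and DDX6 KO below it.

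No tested member passed between the clones of DDX6 KO, with 2 libraries each. The clone 2 minus clone 1 difference ran from -0.28 for Max (95% interval -0.58 to 0.01) to 0.22 for Mycl (-0.61 to 1.04). The interval was widest for Mxd3, from -1.03 to 1.31, so that a 2-fold difference lies inside it. Ddx6 mRNA itself had a mean of 142 CPM in clone 1 and 32.4 CPM in clone 2, and the part of this difference in the members' values was not tested.

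Members with a miR-294 match in the 3′ UTR changed in DGCR8 KO by 1.04 (Mycn), 0.63 (Mga), 0.38 (Mnt), 0.37 (Mxd3) and 0.26 (Mxi1) on the log2 scale. Those without a match changed by 0.71 (Max), 0.64 (Mxd4), -0.24 (Mlx) and -1.89 (Mycl). Of the first group 3 of 5 passed, where 19.9% of all tested genes were higher and 16.5% lower. The Mnt call among these held in 4 of 20 alternatives. All 5 values were above 0, where the median over all tested genes was 0.00, and the 95% intervals of Mxd3 and Mxi1 included 0. Of the second group Max and Mycl passed, in opposite directions. The share that passed among all genes with a match was not counted. The same 5 genes with a match changed in DDX6 KO by -0.13, 0.24, -0.45, -0.32 and -0.80. These are descriptions of 9 genes, and no test was run on them.

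The E-box letters CACGTG, which read the same on both strands, were looked for in the promoters of the members, taken as the 250 bases before and 50 after each RefSeq gene start (GRCm38.p6). A promoter was matched for 9 members, with Myc the exception. Max, Mnt, Mlx and Mxd4 held the letters, and Mycn, Mycl, Mga, Mxi1 and Mxd3 did not. Over all 27025 genes with a promoter among the RefSeq sequences, 8.09% held them. The 4 windows are shown because proteins of the network bind these letters, which are in capitals.
Max, chr12:76962234-76962262, minus strand: gtgagcccggtCACGTGttagggggccga
Mnt, chr11:74830790-74830818, plus strand: cccacccaagcCACGTGtgcgcgcgcggt
Mlx, chr11:101087239-101087267, plus strand: gtgggttggatCACGTGactgagcctcgc
Mxd4, chr5:34187912-34187940, minus strand: ggctgggccacCACGTGctgttgctaagc

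Max and Mnt, which hold the letters, were higher in DGCR8 KO than in DDX6 KO, and so were Mycn, Mga and Mxi1, which do not. No test was run on this and binding was not measured.

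The genes nearest to Mycn and Mycl were sought among tested genes whose mean reached 10 CPM, by the distance between their log2 fold changes in both knockouts over the 10 libraries. For Mycn they were Twf1 (1.03 in DGCR8 KO and -0.12 in DDX6 KO), Vps26a (1.05 and -0.12) and Ssh1 (1.04 and -0.11), all within 0.0227 of Mycn. For Mycl they were Tcf15 (-2.05 and -1.66, at a distance of 0.17), Ccl25 (-2.20 and -1.47, at 0.33) and Pgap1 (-2.20 and -1.44, at 0.34), so that few genes lay near it.

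Other genes of the network were counted in lists. Mxd1 and Mlxip did not pass against WT. Mlxipl, the glucose-responsive partner of MLX, was low and moved in opposite directions, from a mean of 2.63 CPM in WT to 0.419 in DGCR8 KO (limma adjusted p = 0.0207), under the level of 3 counts, and to 7.57 in DDX6 KO (log2 fold change 1.59, limma adjusted p = 0.00734). The adjusted p of the first was 0.0610 without WT replicate 2 and 0.0970 without DGCR8 KO replicate 3, and that of the second was 0.0738 without WT replicate 3. Only 1 WT library, at 4.43 CPM, and no DGCR8 KO library reached 3 CPM. Mlxipl therefore met the filter only through DDX6 KO, so that its rise there is no independent result. Of the known targets of the MLX arm, Txnip, an inhibitor of glucose uptake, was higher in both knockouts (log2 fold change 1.62 in DGCR8 KO and 1.41 in DDX6 KO), and Arrdc4, a relative of it, was higher in DDX6 KO (1.21).

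Genes that MYC proteins are known to activate were mostly lower in DDX6 KO, while in DGCR8 KO fewer passed than did not. Of 36 such genes, 15 were lower and 2 higher in DGCR8 KO, with a median of -0.27, where 16.5% of all tested genes were lower and 19.9% higher, with a median of 0.00. In DDX6 KO 27 were lower and 0 higher, with a median of -0.49, where 16.6% of all tested genes were lower and 17.9% higher, with a median of 0.02. At an unadjusted p under 0.05 and by edgeR, 1 of them was higher in DDX6 KO, and DESeq2 gave 0. In DDX6 KO 28 of the 36 passed at most under any alternative and 21 at least, and in DGCR8 KO the count lay between 11 and 19. The furthest falls in DDX6 KO were those of Prps2, an enzyme of nucleotide synthesis (-0.92), and Tfrc, the transferrin receptor (-0.83). In DGCR8 KO, Eif4ebp1, an inhibitor of the cap-binding factor eIF4E, fell by 1.29 and Prps2 fell by 1.10, while Ccnd2, a G1 cyclin, rose by 2.91 and Tfrc by 0.42. The call of Tfrc in DGCR8 KO was lost without DGCR8 KO replicate 1 or 3 or WT replicate 1 or 2, at an adjusted p of 0.0601 to 0.0919. Eif4ebp1 lies on chromosome 8, where the median gene stood at -0.45 in DGCR8 KO. The median of the 36 genes in single libraries, relative to the WT mean, was -0.06 to 0.13 in WT, -0.34 to -0.04 in DGCR8 KO and -0.56 to -0.37 in DDX6 KO, so that DGCR8 KO replicate 3 lay within WT. The lower targets stood beside higher Mycn and Max and lower Mycl in DGCR8 KO. They stood in DDX6 KO beside lower Mycl, Mycn with no call and a lower Max whose call was not stable. The part of these genes in the levels of the targets was not tested. Of 8 genes that MYC represses, 3 were higher and 1 lower in DGCR8 KO, led by Gadd45a (2.78) and Ndrg1 (1.42), with Ndrg2 lower (-0.88). Ndrg2 was not called without WT replicate 2 or DGCR8 KO replicate 2 or 3, at an adjusted p of 0.0654 to 0.156. In DDX6 KO 2 were higher, Gadd45a (2.01) and Cdkn1b (1.02), and Ndrg1 was lower (-1.33). Gadd45a and Cdkn1b lie on chromosome 6, where the median gene stood at 0.59 in DDX6 KO.

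**Figure D4:**
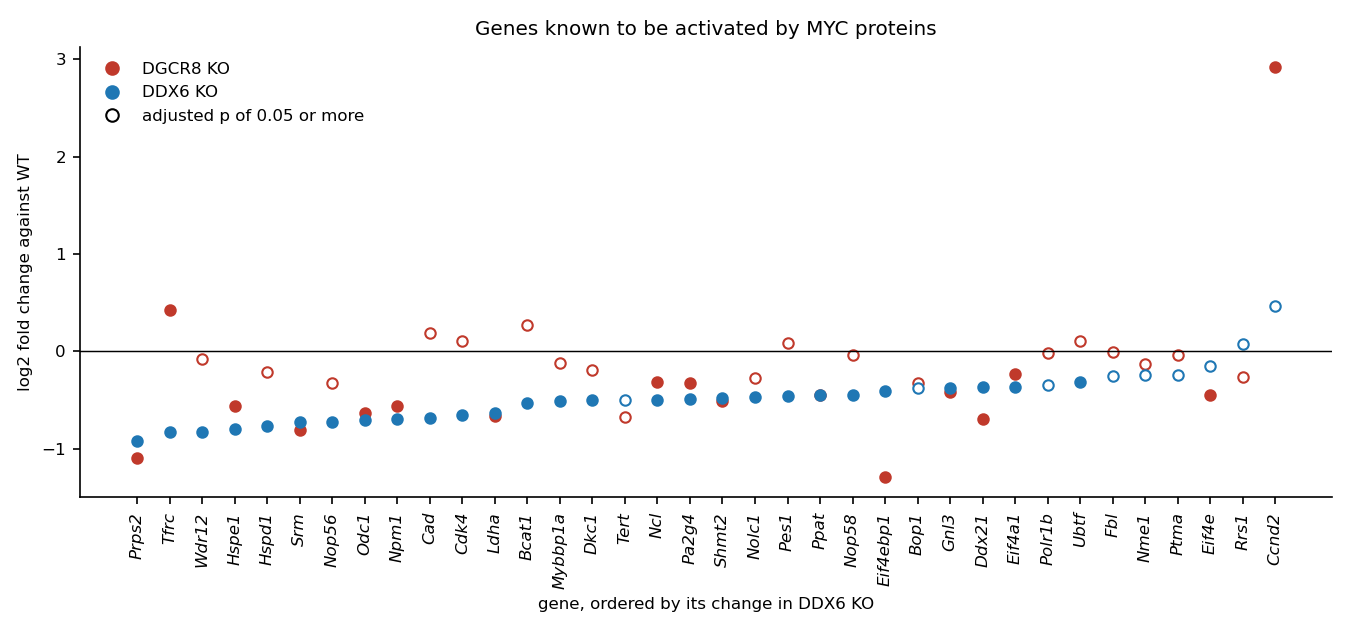
Log2 fold change against WT (y axis) of 36 genes known to be activated by MYC proteins (x axis, ordered by the change in DDX6 KO), in DGCR8 KO (red) and DDX6 KO (blue), with open circles where the adjusted p was 0.05 or more. In DDX6 KO 27 of the 36 were lower and passed, and in DGCR8 KO 15 did, with Ccnd2 far above the rest at 2.91.

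The proteins that work with MYC and its partners were counted in short lists, to be read against the shares of all tested genes (19.9% higher and 16.5% lower in DGCR8 KO, 17.9% and 16.6% in DDX6 KO). The counts for the coactivators, the corepressors, the PRC1.6 subunits and the genes that MYC represses lay within a few genes of what these shares give, and nothing is read from them about the lists. Of 13 coactivators, 3 were higher in DGCR8 KO, led by Ruvbl1 (0.58) and Bptf (0.40), and 1 was lower, Ruvbl2 (-0.67), while 3 were lower in DDX6 KO, led by Ruvbl2 (-0.54) and Wdr5 (-0.31). Without WT replicate 3, 0 coactivators passed in DDX6 KO, and Wdr5 was also not called without WT replicate 2 or either library of clone 2 (adjusted p of 0.0624 to 0.0903). Of 9 genes that control the turnover of MYC proteins, 5 were higher in DGCR8 KO, with Trim32 (0.97) and Gsk3b (0.64) at the top, and Aurka was lower (-0.67). Huwe1, 1 of the 5, was not called by edgeR (adjusted p of 0.0524) or DESeq2 (0.0776). Its call was also lost without WT replicate 1 or 2, DGCR8 KO replicate 1 or 3 or any 1 DDX6 KO library (0.0530 to 0.229). In DDX6 KO Trim32 was higher (0.72) and Skp2 was lower (-0.45). Of the 6 SIN3, HDAC and NCOR corepressors, Ncor1 was higher in DGCR8 KO (0.51) and Hdac1 was lower in DDX6 KO (-0.34, limma adjusted p = 0.0459), a call that was lost without any 1 of the WT libraries, DGCR8 KO replicate 1, clone 1 replicate 2 or clone 2 replicate 1 (adjusted p of 0.0592 to 0.146).

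Mga works in PRC1.6, and of 10 other subunits of this complex E2f6 was higher in both knockouts (0.60 in DGCR8 KO and 0.49 in DDX6 KO). Rybp (0.48), a gene of chromosome 6, was also higher in DDX6 KO, as was Pcgf6 (0.38), while Cbx3 (-0.51) and Cbx1 (-0.33) were lower in DGCR8 KO. In DGCR8 KO, E2f6 was not called without WT replicate 3 (adjusted p of 0.128) or DGCR8 KO replicate 1 (0.0645), and Cbx1 was not without WT replicate 1 or DGCR8 KO replicate 1 or 2 (0.0743 to 0.125). The 3 calls in DDX6 KO fell to 0 without WT replicate 3, without clone 2 replicate 1 and with no filter on low counts. The E2f6 call in DDX6 KO was also lost with the replicate block (0.32, adjusted p of 0.128), with DESeq2 (0.0581) and without clone 1 replicate 1 (0.0578). Rybp was also not called without WT replicate 2 (adjusted p of 0.0901), nor Pcgf6 without WT replicate 1 (0.0807) or clone 1 replicate 2 (0.0503). Of 12 germline genes known to be repressed by MGA and MAX in ESCs, 11 were tested. Of these, 3 (Mael, Taf7l and Slc25a31) reached the filter through DDX6 KO alone, so that their rise is no independent result and the count is not read. The list was not silent in these WT cells, where 3 of the 11 had a mean under 3 CPM. The WT mean was 44.0 CPM for Dazl, 18.9 for Stk31 and 16.9 for Hormad1. Ddx4, a germ cell helicase, was 12.4 ± 4.49 CPM in WT (SD, n = 3), 15.8 ± 4.41 in DGCR8 KO (n = 3) and 47.2 ± 6.63 in DDX6 KO (n = 4), where it rose by 2.02 on the log2 scale (limma adjusted p = 6.12e-06). Taf7l, a germ cell relative of a TFIID subunit, gave 0, 0 and 2 counts in WT, 0, 2 and 3 in DGCR8 KO and 9, 19, 13 and 18 in DDX6 KO. In DGCR8 KO Hormad1 was higher (0.83), and Stk31 (-1.97) and Dazl (-0.97) were lower, the last with an adjusted p of 0.0620 without DGCR8 KO replicate 3. CACGTG was present in the promoters of 8 of the 12 germline genes, 4 of 9 members and 8 of 29 matched MYC-activated genes. Over all 27025 genes with a promoter, 8.09% held it. Binding was not measured.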

How the data were processed

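mRNA from 10 libraries of mouse ESCs was measured by QuantSeq 3′ FWD. The deposited values are raw read counts per gene, made by the authors with Cutadapt 1.14, STAR 2.5.3a (unique alignments to mm10, the GRCm38 build) and strand-specific featureCounts 1.5.3 on GENCODE M14. The 92 spike-in sequences took 1.10% to 2.36% of counts and were left out. Genes were matched to symbols by identifier (51274 of 51467), and groups were taken from the sample titles.

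Counts were scaled by TMM (edgeR 4.0.16) and tested with limma-voom (limma 3.58.1, R 4.3.3) over all 10 libraries with genotype as the group, after a filter of at least 3 CPM in at least 3 libraries (11683 genes). P-values were two-sided and Benjamini-Hochberg adjusted over all genes tested, and a gene passed at an adjusted p under 0.05. A second fit took each clone as a group. Binomial intervals were exact (scipy 1.17.1). The fit was tested on simulated data. Alternatives were other scalings, filters and tests (edgeR, DESeq2 1.42.0), a replicate block, single clones and leaving out each library.

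The members and gene lists were chosen with earlier results of these data known. Named list genes were the passing ones with the furthest rise and fall, up to 2 each per knockout. Ddx4 and Taf7l are given in more detail for their roles, and Pcgf6 is named to complete a count, both of which were decided after their values were seen. Part of the result for the genes of MYC turnover is not reported here. Sources used here do not say that libraries of a group came from separate cultures, so p-values measure the spread between libraries, which may be technical.

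Deviations from the group means were correlated between libraries of different groups. For WT and DGCR8 KO, the 3 pairs of the same number gave 0.145 to 0.285 and the 6 others -0.257 to -0.0196. These numbers may therefore pair, but deviations within a group sum to 0, so the 6 others are no independent contrast. Of the 4 pairs of WT with DDX6 KO, those of number 1 stood at 0.162 and 0.154, and those of number 2 at 0.0715 and 0.0108. The 4 pairs of DGCR8 KO with DDX6 KO ranged from -0.0499 to 0.171. The 2 pairs of clone 1 with clone 2 stood at 0.199. Pairing with DDX6 KO was therefore not settled. The main fits used no pairing, and the replicate block is among the alternatives.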

Additional observations from a re-analysis of the deposited data

Results flagged for a closer look

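The change against WT differed between the knockouts for 5 of the 9 tested members, by the limma test of DGCR8 KO against DDX6 KO. Over all tested genes, 23.0% were higher in DGCR8 KO and 21.0% were lower. The difference in log2 fold change, DGCR8 KO minus DDX6 KO, was 1.17 for Mycn, 1.07 for Mxi1, 1.05 for Max, 0.83 for Mnt and 0.39 for Mga. The DGCR8 KO libraries lay above the DDX6 KO libraries for these members, which were picked by that test. The share of all genes without such overlap was not counted, so nothing is read from it. The routes differed. Mycn rose in DGCR8 KO with no call in DDX6 KO, Mxi1 fell in DDX6 KO with no call in DGCR8 KO, Max and Mnt moved in opposite directions, and Mga rose further in DGCR8 KO. Within DDX6 KO, Mxi1 stood at 33.4 CPM in clone 1 replicate 2 and at 20.1 to 24.6 in the other 3 libraries. Mycn stood at 120 CPM in clone 2 replicate 1 and at 68.6 to 93.8 in the other 3.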

How the results depend on the processing

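The 15 log2 fold changes of members that passed were computed under 330 alternative settings in all, of which 286 still passed, 44 did not and 0 changed sign. Those lost belonged to Mnt in both knockouts and to Max and Mga in DDX6 KO, and the other 11 passed under every alternative. In DGCR8 KO 5 members passed, and 4 to 5 when 1 library was left out. In DDX6 KO 5 passed, but 3 with library sizes from total counts, 3 without a filter, 2 for clone 1 alone, 3 for clone 2 alone, 3 with each clone summed and 2 to 5 when 1 library was left out. Fewer libraries enter some of these fits, and the cause was not tested for the rest. Between the knockouts 5 passed, 6 with total counts (Mlx was added) and 5 when any 1 library was left out. A required log2 change beyond 1 left 2 members in DGCR8 KO, 1 in DDX6 KO and 3 between the knockouts. With the replicate block, 5 members passed in DGCR8 KO, 4 in DDX6 KO (Mnt was lost, at an adjusted p of 0.0645), 5 between the knockouts and 0 between clones. Total counts moved the median of all genes in DDX6 KO from 0.02 to 0.15. Alternatives for the MYC target list were chosen after seeing the data, and 11 to 19 genes fell in DGCR8 KO and 21 to 28 in DDX6 KO, with 11 to 18 and 22 to 28 when 1 library was left out. Depth limits Myc, Mxd3 and Mxd4 the most.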
